A study of Mus musculus with 11 samples.

Results

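The genes described here encode the proteins of the cytosolic ribosome, followed in mouse germ cells from spermatogonia to late pachytene. They were chosen by name: every gene whose symbol starts with Rpl or Rps and a digit, with Rpsa and Rplp0, Rplp1 and Rplp2, and without the testis genes Rpl10l and Rpl39l, the Rps6k kinases, Rps19bp1 and rows marked as pseudogenes. This gave 83 genes of the 20265 nuclear genes in the table, 50 of the large and 33 of the small subunit, of which 4 lie on the X chromosome. The data are single cells of the adult testis of 3 Dazl-GFP reporter mice without treatment, a strain in which green fluorescent protein marks cells that express the germ cell gene Dazl. Live GFP-positive cells were sorted singly into wells and their polyadenylated RNA was counted from its 3′ ends by SORT-Seq with unique molecular identifiers (UMIs), random tags that mark each captured molecule. Mouse 1 gave 8 libraries by the CEL-Seq1 protocol, mouse 2 gave 1 and mouse 3 gave 2 by CEL-Seq2, so the protocol and mouse 1 cannot be told apart. The mouse is the replicate (n = 3), and comparisons are between stages within each mouse.

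A ribosome holds a single copy of nearly every one of these proteins, and their messenger RNAs are among the most abundant of growing cells. Most of these messages begin with a run of pyrimidines at the 5′ end, the terminal oligopyrimidine (TOP) motif, through which the kinase complex mTORC1 and the RNA-binding protein LARP1 set how strongly they are translated and stored. In male meiosis the X chromosome is silenced in the pachytene stage, and several X-linked housekeeping genes have autosomal copies that arose by retroposition and are expressed in the testis.

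Of 1920 wells, 1448 had at least 1000 UMIs and were kept as cells, and 1239 of these fell into 11 stages made without the ribosomal protein genes. Stage 1 was undifferentiated spermatogonia-like, stages 2 and 3 differentiating spermatogonia-like, stages 4 and 5 preleptotene-like, stages 6, 7 and 8 leptotene and zygotene-like, and stages 9, 10 and 11 pachytene-like. Stages 4, 8, 9 and 10 had none of their class's markers among their 10 leading genes. They take their names from the mean of all markers of the class. The class ranked second was differentiating spermatogonia for stages 1 and 4 and preleptotene for stages 2 and 3. It was leptotene and zygotene for stages 5 and 9, and pachytene for stage 8. For stage 10 it was undifferentiated spermatogonia, and for stage 11, the latest, round spermatids. Stage 5 had 2 preleptotene and 2 leptotene and zygotene markers among its 10 leading genes. Stages 7 and 8 shared the leading genes Gml, Hemt1 and Gnas. The borders between these classes are uncertain to that extent. Summed UMIs per mouse and stage ranged from 228800 to 4828890, and mouse 2 gave no sum at stage 9, where it had 8 cells. The stages were named from marker lists, so levels of these lists describe the earliest and latest stage and do not test their identity. Summed counts per 1000000 nuclear UMIs (CPM) of the pachytene list lay between 371 and 980.0 at stage 1 and between 5918 and 10408 at stage 11. The undifferentiated spermatogonia list lay between 1403 and 1929 CPM at stage 1 and between 964 and 1199 at stage 11. The differentiating list lay between 2048 and 2796 CPM at stage 1 and between 289 and 497 at stage 11. Stage 1 had 1 marker of each of these 2 lists among its 10 leading genes. Summed Sertoli cell markers lay between 99.6 and 163 CPM at stage 1 and between 8.16 and 46.7 at stage 11. Markers of macrophages and red blood cells were at or near 0, but only 3 of 5 and 1 of 4 were in the table. Round spermatid markers lay between 12.9 and 78.5 CPM at stage 11. The part of these other cells' RNA in the results was not tested.

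The sequences around the annotated start are shown for members that behaved differently, with the X-linked ones beside autosomal genes named after them. Each runs from 40 bases before the start to 20 bases from it, 5′ to 3′ on the gene's strand, from RefSeq (GRCm38.p6). Capitals mark the longest run of C and T that touches the 20 bases on either side of the start. Of equally long runs only the first is marked, as in Rps27l. Where several starts are annotated, the one with the longest run is shown. The first 4 are the X-linked members, Rpl10 (chrX:74270776-74270835, plus strand), Rpl36a (chrX:134585614-134585673, plus strand), Rpl39 (chrX:37085203-37085262, minus strand) and Rps4x (chrX:102189372-102189431, minus strand). They are followed by the autosomal genes Rpl10l (chr12:66284382-66284441, minus strand), Rpl39l (chr16:10170188-10170247, plus strand) and Rpl36al (chr12:69184048-69184107, minus strand). The last 3 are Rps6 (chr4:86857348-86857407, minus strand), Rpl13a (chr7:45128726-45128785, minus strand) and Rps27l (chr9:66946046-66946105, plus strand). The protein of Rps6 is the classical substrate of the mTORC1-dependent S6 kinases. Rpl13a was among the members that fell most, and Rps27l was highest at stage 7.
Rpl10: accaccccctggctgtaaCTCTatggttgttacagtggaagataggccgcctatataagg
Rpl36a: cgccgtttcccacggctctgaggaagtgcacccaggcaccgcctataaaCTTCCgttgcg
Rpl39: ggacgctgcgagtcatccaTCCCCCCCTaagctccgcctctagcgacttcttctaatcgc
Rps4x: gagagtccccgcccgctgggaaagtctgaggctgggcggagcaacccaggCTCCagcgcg
Rpl10l: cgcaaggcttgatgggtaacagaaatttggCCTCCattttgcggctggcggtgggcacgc
Rpl39l: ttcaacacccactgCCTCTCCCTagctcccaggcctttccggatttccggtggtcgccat
Rpl36al: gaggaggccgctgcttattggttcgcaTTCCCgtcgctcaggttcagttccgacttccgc
Rps6: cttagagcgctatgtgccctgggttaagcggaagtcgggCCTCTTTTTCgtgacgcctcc
Rpl13a: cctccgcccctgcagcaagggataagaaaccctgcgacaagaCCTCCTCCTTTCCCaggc
Rps27l: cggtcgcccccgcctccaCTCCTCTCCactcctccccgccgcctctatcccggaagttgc

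RefSeq promoters of 300 bases (250 before and 50 from the start) were matched for 62 of the 83 members. A run of at least 8 C or T touching the 20 bases on either side of the start was present in 32 of these 62 (51.6%), against 6399 of all 27025 genes with a promoter (23.7%). The letters CTTCCG, the core that ETS factors such as GABPA bind, were found on either strand in 42 members (67.7%), against 18.8% of all genes, and this motif can overlap a C and T run. Of the members that fell from the earliest to the latest stage (below), 28 of 51 with a promoter had the run and 34 had CTTCCG. Of those without a call, 3 of 8 had the run and 6 of 8 had CTTCCG. The letters describe these windows only and do not show binding or the mapped 5′ end in testis.

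Ribosomal protein messages made up a smaller share of the transcriptome in pachytene-like cells than in spermatogonia-like cells. At stage 1 they were 7.65%, 9.97% and 8.62% of nuclear UMIs in mice 1, 2 and 3, and at stage 11 they were 3.66%, 3.91% and 3.71%. Every mouse's latest value was below every mouse's earliest value. The mean went from 8.75% ± 1.16 (SD, n = 3) to 3.76% ± 0.14, a log2 ratio of -1.21 ± 0.14, or 2.32-fold lower. Single cells followed the sums: in mouse 1 the median cell had 7.67% at stage 1 (quartiles 6.63% and 8.63%) and 3.71% at stage 11 (3.47% and 4.00%).

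The decline of the share had a plateau and a step. After a lower value at stage 2 (7.21% ± 1.43), the share was 7.69% ± 0.99 at stage 3 and 7.70% ± 1.20 at stage 4, and it was then 5.47% ± 0.71 at stage 5, the later of the preleptotene-like stages. In mice 1, 2 and 3 the values at stage 4 were 6.49%, 8.89% and 7.73%, and those at stage 5 were 4.78%, 6.19% and 5.44%. Each mouse was lower after this step, and the lowest value at stage 4 lay above the highest at stage 5. Markers of preleptotene and of leptotene and zygotene led stage 5 in equal number. The stage names therefore cannot tell whether the step lies within preleptotene. Stage 7 had a mean of 5.05% ± 0.54, stage 8 one of 4.65% ± 0.30 and stage 10 one of 4.14% ± 0.35.

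**Figure D1:**
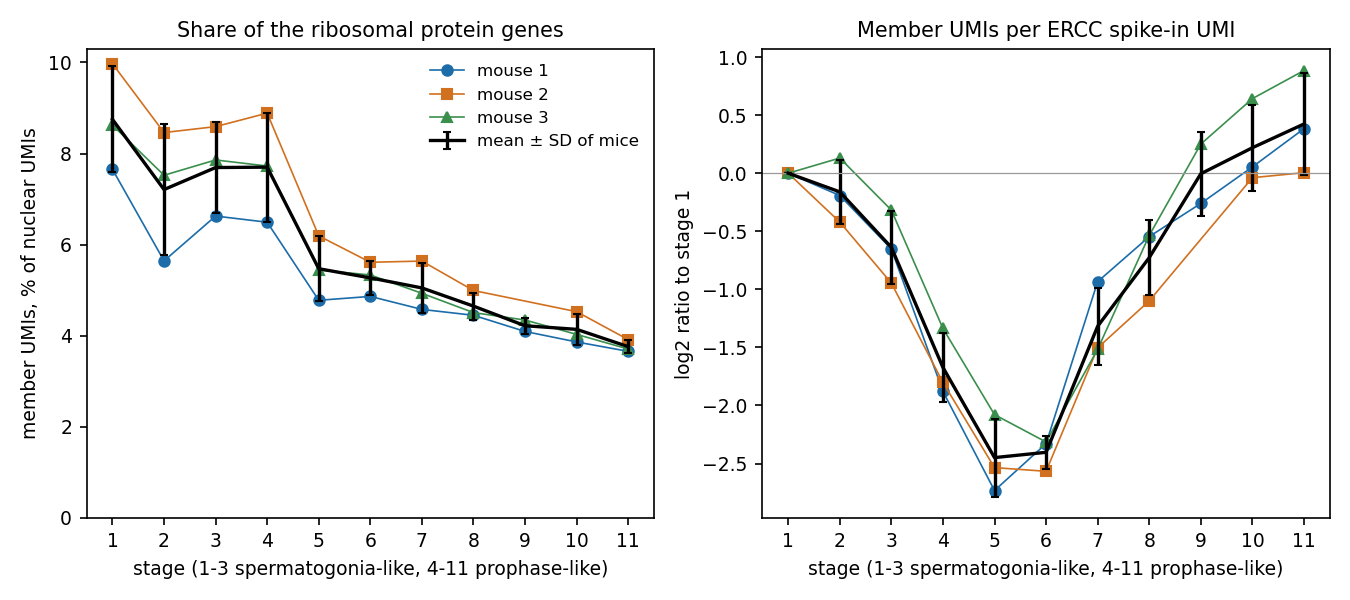
Ribosomal protein UMIs as a percentage of nuclear UMIs (left) and as the log2 ratio to stage 1 of member UMIs per ERCC spike-in UMI (right), by stage, with a line for each mouse and the mean ± SD of the mice in black. The share stays near 7.7% at stages 3 and 4 and is 5.47% at stage 5, while the level per spike-in is lowest at stages 5 and 6 and back near that of stage 1 from stage 9.

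Measured against the spike-in RNA, the members' level at the latest stage was not below that at the earliest in any mouse. ERCC spike-ins are synthetic RNAs that are added to each well, and if their amount was the same in every well, which the labels do not state, member UMIs per ERCC UMI follow the amount per cell. The log2 ratio to stage 1 was -1.67 ± 0.29 at stage 4 (SD, n = 3), -2.45 ± 0.34 at stage 5 and -2.40 ± 0.14 at stage 6, and was 0.42 ± 0.44 at stage 11, with 0.38, 0.005 and 0.88 in mice 1, 2 and 3. Member UMIs per cell went from 2692 at stage 1 through 434 at stage 6 to 3579 at stage 11. All nuclear UMIs per ERCC UMI were 1.64 ± 0.41 higher on the log2 scale at stage 11 than at stage 1. Depth and the mitochondrial share moved with the stages too: the median cell had 27076.5 UMIs at stage 1, 7498 at stage 5 and 94377.5 at stage 11, and mitochondrial genes gave 9.59%, 14.7% and 5.03% of UMIs there. Their part in the share was not tested.

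Across single genes, most members were lower at the latest stage. Of 82 members tested, 68 were lower and 3 higher at stage 11 than at stage 1, and 11 passed in neither direction (edgeR's quasi-likelihood test on summed UMIs with the mouse as a term, Benjamini-Hochberg adjusted p under 0.05 over 12028 genes). Over the whole table, 41.2% of genes tested were lower and 34.8% higher. The median log2 fold change was -0.91 for the members and -0.17 for all genes. Of the 82 members, 74 were lower in all 3 mice, 2 were higher in all 3, and 6 were mixed or level. The lowest earliest value lay above the highest latest value for 63 members, and 1 member did not overlap in the other direction, against 40.2% and 27.3% of all genes. The remaining gene, Rpl3l, a muscle paralogue of Rpl3, had 8 UMIs at stage 1 and 4 at stage 11 and was not tested.

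Members of both subunits fell. Among autosomal genes, 36 of 46 large subunit members were lower and 2 higher, with a median of -0.80, and 28 of 32 small subunit members were lower and 1 higher, with a median of -1.04. The difference between the subunits was not tested. All 4 X-linked members were lower, with a median of -5.10. They were not compared with all X-linked genes. Among X-linked genes of other lists, named below for the size of their change, Eif1ax (-6.01), Gspt2 (-5.17) and Utp14a (-4.62) fell too. The X-linked members made up 1.23% of the members' UMIs at stage 1, so leaving them out could change the share only little. Without them it differed by -1.19 on the log2 scale.

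**Figure D2:**
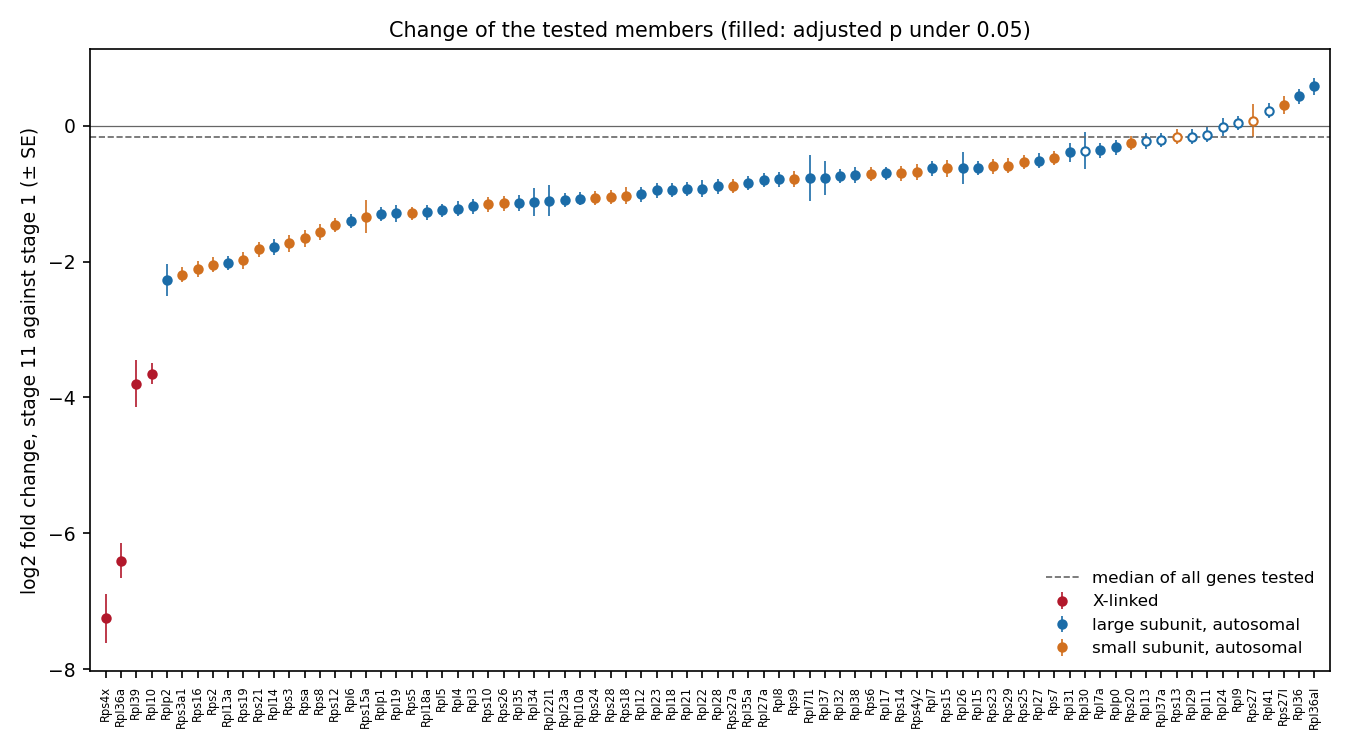
Log2 fold change ± SE of 80 of the 82 tested members, stage 11 against stage 1, ordered by size, with X-linked members in red and autosomal members of the large and small subunit in blue and orange, filled where the adjusted p was under 0.05. The 4 X-linked genes lie between -7.25 and -3.65, the autosomal ones between -2.27 and 0.58.

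Of the autosomal genes, 5 formed the lower end of the range, each lower in all 3 mice. Rps3a1, at the mRNA exit side of the small subunit, had 1470.3, 1959.7 and 1822 CPM in mice 1, 2 and 3 at stage 1 and 302, 321 and 312 at stage 11 (log2 fold change -2.19 ± 0.11 SE, adjusted p = 1.43e-18 in edgeR's test). Rps16, a small subunit protein that contacts the transfer RNA site, went from 1592, 2356 and 1822 CPM to 387, 362 and 338 (-2.11 ± 0.12). Rps2, at the mRNA entry channel, went from 1666, 1733 and 2127 CPM to 414, 309.9 and 379.7 (-2.04 ± 0.12). The groups of these genes did not overlap, and their values at stage 11 were closely spaced. Rpl13a, a large subunit protein also known for a role in silencing inflammatory messages, went from 1055, 2349.97 and 1559.9 CPM to 247, 401 and 322 (-2.02 ± 0.11). Rplp2, an acidic protein of the ribosomal stalk, had the largest fold change (-2.27 ± 0.23) on few molecules, 147 UMIs at stage 1, and its stages overlapped between mice, with 131, 41.5 and 25.4 CPM at stage 1 and 28.2, 3.06 and 3.09 at stage 11. The pseudogene row Rplp2-ps1, with 653 CPM over all stages in mouse 1 and 0.187 and 0.572 in mice 2 and 3, held 10725 UMIs against 1177 for Rplp2, and the 2 rows summed gave a log2 ratio of -2.87 ± 0.61 (SD over mice).

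Members with high counts at stage 1 fell as well. Rpl4, of the peptide exit tunnel, had 2097, 4094 and 4358 CPM at stage 1 and 901, 1344 and 1385 at stage 11 (-1.22 ± 0.11, adjusted p = 2.36e-12). Rps24, mutated in some families with Diamond-Blackfan anaemia, went from 1869, 3319 and 2492 CPM to 833, 1197 and 945 (-1.07 ± 0.10). The stages did not overlap for either gene. Rps6, named here for its known role and not by size, went from 1291, 1805 and 1793 CPM to 686, 854 and 894 (-0.72 ± 0.10). Rps27a, which is made as a fusion with ubiquitin, went from 1492, 2477 and 2023 CPM to 789, 938 and 889 (-0.89 ± 0.10). UMIs are counted at 3′ ends, so these CPM take no account of length and are compared within a gene.

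At the other end were members with small or positive fold changes. Rpl36al, an autosomal copy of the X-linked Rpl36a, was higher in all 3 mice, with 262, 233 and 237 CPM at stage 1 and 329, 284 and 291 at stage 11 (0.58 ± 0.13, adjusted p = 9.68e-05), without overlap. Rpl36 went from 256.1, 368 and 335 CPM to 275, 444 and 361 (0.43 ± 0.11, adjusted p = 0.000755), higher in each mouse but overlapping between mice. Rps27l had 169, 227 and 154 CPM at stage 1 and 193, 185 and 167 at stage 11. Its fold change of 0.31 ± 0.14 (adjusted p = 0.046) turned to -0.05 when counts were scaled by total UMIs without the members, and none of these 3 genes passed as higher under that scaling. Rpl24 (-0.02 ± 0.13, adjusted p = 0.905), Rpl9 (0.04 ± 0.10, adjusted p = 0.722) and Rpl41 (0.22 ± 0.11, adjusted p = 0.0543) did not pass in edgeR's test. Rpl24, a protein of the bridge between the subunits, had 664, 742 and 630 CPM at stage 1 and 539.9, 530.2 and 576 at stage 11.

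The normalization that edgeR used, the trimmed mean of M-values (TMM), sets where 0 lies. With total UMIs in its place, the median of all genes moved from -0.17 to -0.43 and that of the members from -0.91 to -1.19, and with ERCC UMIs as the library size they became 1.21 and 0.44. The members lay about as far below the median gene under each of these scalings. Per ERCC UMI, 11 members were lower (the 4 X-linked and 7 autosomal ones) and 37 higher, where 21.6% of all genes tested were lower and 59.3% higher. The 5 autosomal genes at the lower end kept their direction there: Rplp2 -0.96, Rps3a1 -0.84, Rps16 -0.77, Rps2 -0.68 and Rpl13a -0.67 on the log2 scale.

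The stages at which members changed were read from the same fit. Against stage 1, 32 members were lower at stage 2 (13.5% of all genes tested) and 32 at stage 4 (21.2%). The count was 61 by stage 5 (30.4%), 63 by stage 8 (38.2%) and, as above, 68 in the latest stage. Between neighbouring stages, 10 members were higher at stage 3 than at stage 2 (5.28% of all genes). The step from stage 4 to stage 5 had 56 lower and 1 higher (20.3% of all genes lower), with a median of -0.51 for the members and -0.10 for all genes. At the step from stage 5 to stage 6, 26 were lower and 10 higher, where 16.2% of all genes were lower and 15% higher. From stage 10 to stage 11 there were 2, both lower (3.31% of all genes). The step from stage 4 to stage 5 had the most member calls of the steps between neighbouring stages after stage 2. Without the mouse term the counts were 10 at stage 2, 8 at stage 4 and 31 for the stage 4 to 5 step, and without mouse 3 they were 21, 17 and 46. The count of members higher at stage 3 than at stage 2 was 1 without the mouse term, 3 without mouse 2 and 4 without mouse 3.

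Single members departed from the common course. The mean level was highest at stage 1 for 46 of the 83, at stage 4 for 15 and at stage 5 or later for 10, and it was lowest at stage 11 for 37 and at stage 5 for 16. Rps27l, the paralogue of Rps27 that p53 induces, rose from a mean of 183 CPM at stage 1 to 514 at stage 7 (log2 fold change 1.58, adjusted p = 2.43e-11 in edgeR's test) and was back at 182 at stage 11. Rpl41, the smallest ribosomal protein, peaked at stage 4 with 2042 CPM against 1097 at stage 1 (0.92, adjusted p = 1.69e-08), and Rpl36 peaked there as well, with 558 against 319.7 CPM (0.78, adjusted p = 1.39e-06). These genes and Rps20, Rps28, Rps29 and Rps12, whose mean was highest at stage 5 or 6, were picked out after their values were seen.

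**Figure D3:**
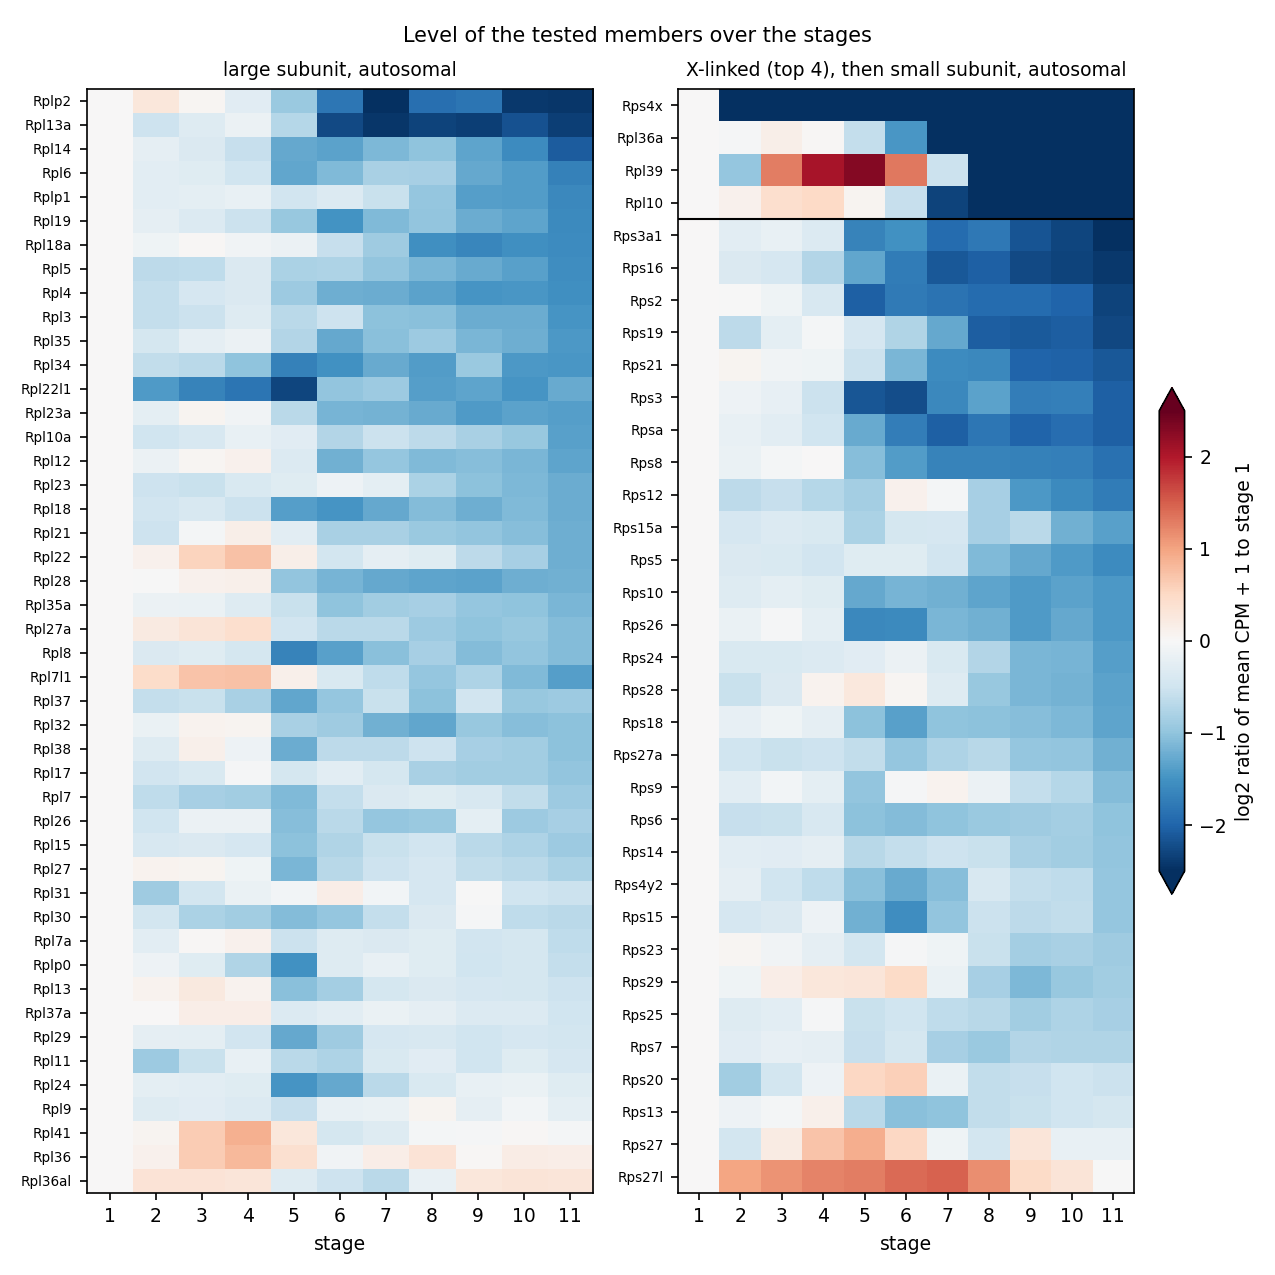
Log2 ratio of mean CPM + 1 to stage 1 for 80 of the 82 tested members over the 11 stages (stage 9 is the mean of 2 mice), in the order of their change, with autosomal large subunit genes on the left, and X-linked and autosomal small subunit genes on the right. Colours end at -2.5 and 2.5; most rows turn blue between stages 4 and 5, Rps27l is red through stage 8, and the X-linked rows turn dark blue by stage 8, Rps4x from stage 2.

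The pool of ribosomal protein messages was also compared with itself, with summed member UMIs as the library size. From stage 1 to stage 11, 27 of 82 members lost share within the pool and 30 gained, where 27.2% of all genes tested were below and 52.6% above. The largest gains were those of Rpl36al (1.502 ± 0.12 SE), Rpl36 (1.36 ± 0.11) and Rps27l (1.23 ± 0.13). The largest losses outside the X chromosome were those of Rplp2 (-1.39 ± 0.24), Rps3a1 (-1.27 ± 0.09) and Rps16 (-1.18 ± 0.10). This scaling moves the members nearly alike and puts their median near 0 (0.016), so gains and losses must balance. The order of these genes restates that of the fold changes above. The median of all genes was 0.74 here, so their shares are no baseline without change. Log2 ratios of stage 11 to stage 1 were similarly ordered in the mice, with Spearman's rho of 0.83 between mice 1 and 2 (79 members), 0.89 between mice 1 and 3 (80 members) and 0.86 between mice 2 and 3 (79 members), and of 0.80, 0.87 and 0.84 over 76 autosomal members, as a description over genes that share libraries. Without the mouse term 18 members gained.

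All 4 X-linked members were lower at stage 8 than at stage 1, and their courses were not compared with each other by a test. Their median log2 fold change against stage 1 in stages 5, 6 and 7 was -0.16, -0.92 and -3.04, and that of the autosomal members -0.66, -0.70 and -0.62. Rpl10 (chrX:74270816-74273135), which is added late in large subunit assembly, had 379, 576 and 383 CPM in mice 1, 2 and 3 at stage 1 and 391, 565 and 446 at stage 5. It had 282, 360 and 252 at stage 6, 52.9, 96.2 and 117 at stage 7, and 25.7, 26.5 and 29.4 at stage 11 (-3.65 ± 0.16, adjusted p = 2.41e-20). Values at stages 6 and 7 did not overlap. Rpl36a (chrX:134585654-134588062) went from 442, 296 and 235 CPM at stage 1 to 147, 99.0 and 106 at stage 6 and 2.55, 3.13 and 5.15 at stage 8 (stage 11: -6.41 ± 0.25, adjusted p = 5.11e-21). It was already lower than at stage 1 at stage 5 (-0.48, adjusted p = 0.0256).

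Rpl39 (chrX:37082518-37085222), a small protein of the exit tunnel, rose before it fell. It had 56.6, 127 and 58.6 CPM at stage 1, 34.5, 49.2 and 39.5 at stage 2 and 321, 491 and 385 at stage 5. The rise from stage 1 to stage 5 was 2.495 on the log2 scale (adjusted p = 1.23e-10), and no mouse's value at stage 5 overlapped stage 1. At stage 8 it was down to 10.2, 15.7 and 12.9 CPM, and at stage 11 to 1.24, 10.2 and 5.30 (-3.80 ± 0.35, adjusted p = 5.8e-12, on 152 UMIs at stage 1 and 40 at stage 11).

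Rps4x (chrX:102184941-102189391) fell far ahead of the others. It had 214, 202 and 234 CPM at stage 1 and 20.1, 10.7 and 13.9 at stage 2, in differentiating spermatogonia-like cells, a log2 fold change of -3.70 (adjusted p = 1.63e-11 in edgeR's test). It stayed between 8.52 and 45.2 CPM from stage 3 to stage 6 and was at 1.04, 0 and 1.32 CPM at stage 11 (-7.25 ± 0.36), on 487 UMIs at stage 1 and 11 at stage 11. The other 3 X-linked members had smaller differences at stage 2, though the differences between members were not tested: Rpl10 stood at 0.14 (adjusted p = 0.494) and Rpl36a at 0.01 (adjusted p = 0.986) against stage 1, and Rpl39 at -0.81 (adjusted p = 0.0343). X-linked members made up 1.23% ± 0.19 of the pool's UMIs at stage 1 and 2.02% ± 0.12 at stage 5. They made up 0.091% ± 0.014 at stage 8 and 0.0975% ± 0.0073 at stage 11. Pachytene was the class ranked second for stage 8, so its low values cannot be placed before pachytene. Stage 7 had 1 leptotene and zygotene marker among its leading genes but shared Gml, Hemt1 and Gnas with stage 8. The lower values at stage 7 therefore cannot be placed firmly before pachytene either.

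Autosomal genes named after these X-linked members took another course. Rpl10l (chr12:66283379-66284401), a testis copy of Rpl10 that is needed in male meiosis, had 275, 316 and 342 CPM at stage 1, 92.6, 145 and 166 at stage 3, 978, 1323 and 1216 at stage 8, and 667, 732 and 712 at stage 11 (1.46 ± 0.13, adjusted p = 7.12e-12). From stage 7 on its counts were above those of Rpl10 in every mouse. Rpl39l (chr16:10170197-10174911), the testis copy of Rpl39, had 357, 418 and 369.96 CPM at stage 1, 105, 145 and 198 at stage 5, 785, 727 and 846 at stage 8, and 628, 650.5 and 670.2 at stage 11 (1.06 ± 0.13, adjusted p = 6.86e-09). Both genes were at their lowest where Rpl39 and Rpl10 were high, at stages 3 to 5. These 2 genes are outside the naming rule of the 83.

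Rpl36al (chr12:69182734-69184067) dipped to 153 CPM on average at stage 7 from 244 at stage 1 (-0.56, adjusted p = 0.00154 in edgeR's test) and returned to 301 at stage 11. Rps4y2 is an autosomal copy of Rps4x on chromosome 6 that RefSeq lists as Rps4l, a transcribed pseudogene, and it was picked out after its values were seen. It had 407 CPM ± 86.3 (SD, n = 3) at stage 1. It was down to 168 ± 28.8 at stage 6, back to 308 ± 30.7 by stage 8 and then 208 ± 23.1 at stage 11 (-0.68, adjusted p = 3.56e-06). Reads of near-identical copies can be assigned to either gene, so levels of Rps4x and Rps4y2, and of Rpl10 and Rpl10l, are uncertain to that extent.

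**Figure D4:**
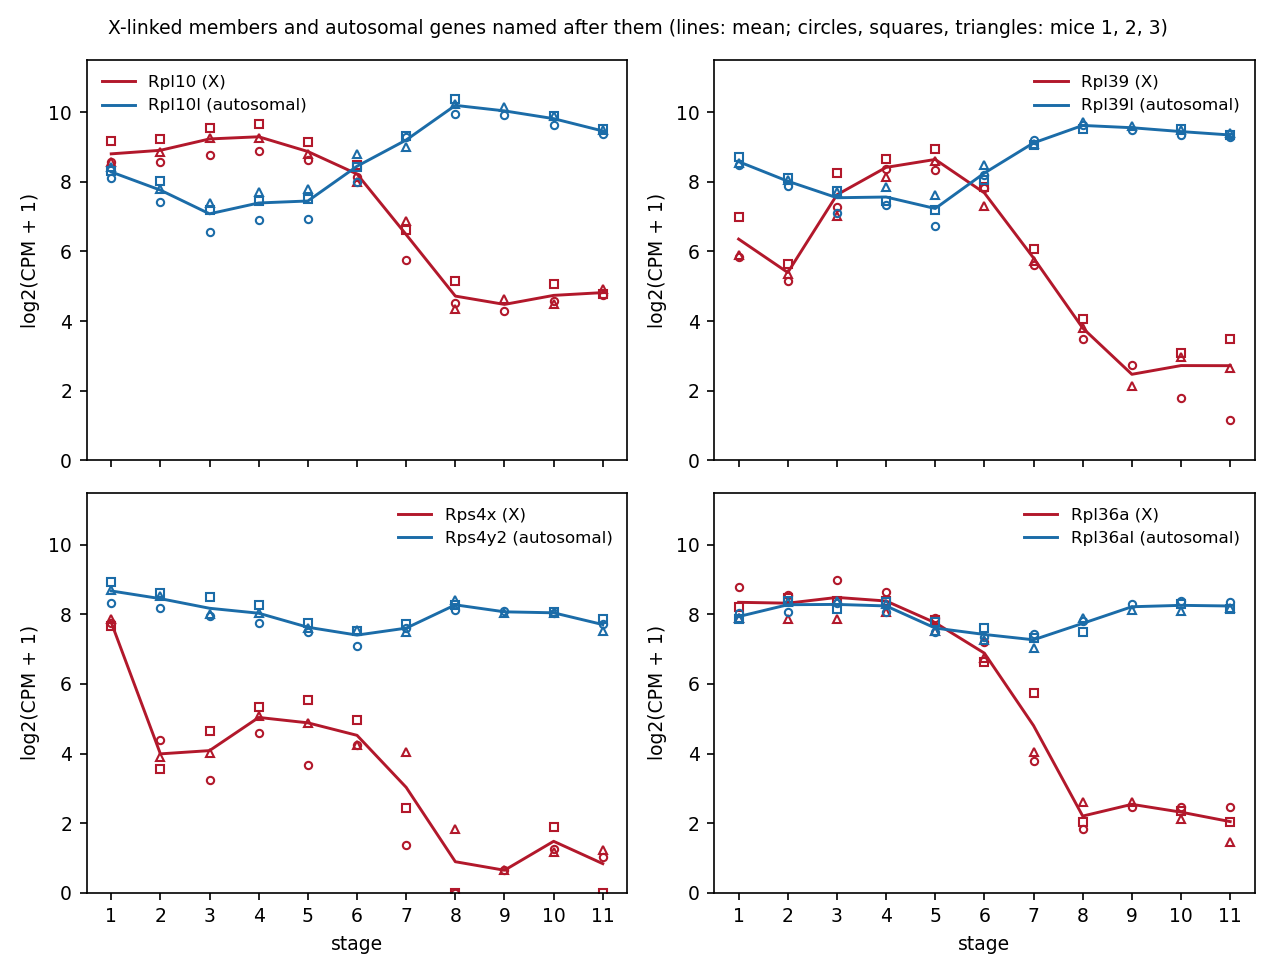
Level as log2(CPM + 1) by stage of the X-linked members Rpl10, Rpl39, Rps4x and Rpl36a (red) and of the autosomal genes Rpl10l, Rpl39l, Rps4y2 and Rpl36al (blue), with lines at the mean and circles, squares and triangles for mice 1, 2 and 3. The red lines drop by stage 8 and the blue ones stay above 7, with Rpl10l and Rpl39l rising from stage 6; Rps4x falls at stage 2.

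Some members differed widely in level between mouse 1 and the other mice. Over all stages, 65 members had levels in mouse 1 within 2-fold of those in both other mice, but 10 were over 4-fold higher in mouse 1 than in both, and Rpsa was over 4-fold lower. These 11 were picked out by these values. Rpl26 had 372 CPM in mouse 1, 0 in mouse 2 and 0.458 in mouse 3. Rps27 had 294, 0.937 and 1.14 CPM, Rpl22l1 had 138, 1.31 and 1.09, Rpl30 had 394, 2.81 and 3.89, and Rpl34 had 312, 4.50 and 5.26. Rpsa had 193, 997 and 1127 CPM. Whether the protocol, the read assignment or the animal sets these levels cannot be told apart. Rows left out as pseudogenes differed in the same way: Rpl34-ps1 had 294 CPM in mouse 1 and 0 and 0.0572 in the others, and Rps15a-ps6 had 209, 3.37 and 2.06.

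**Figure D5:**
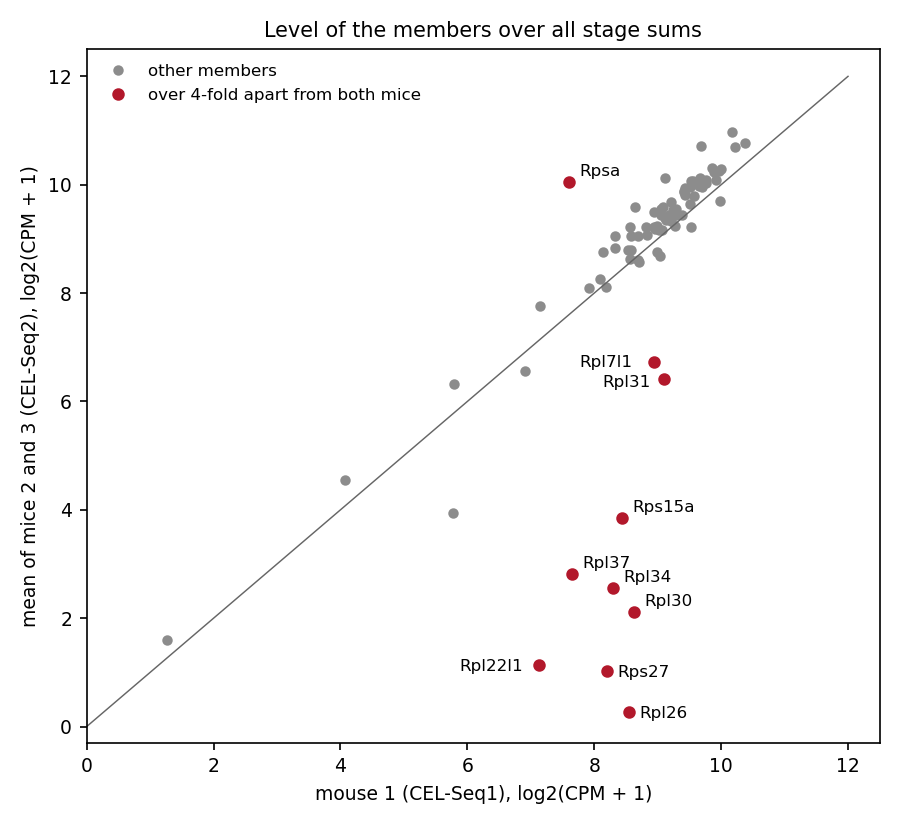
Level of 81 of the 83 members over all stage sums as log2(CPM + 1) in mouse 1 against the mean of mice 2 and 3, with the line of equality and, in red, 10 members that were over 4-fold apart from both mice. Rpsa lies above the line and the other 9 lie below it.

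The stage results were similar without these 11 genes. The share of the other 72 members was 7.05%, 9.71% and 8.31% at stage 1 and 3.33%, 3.84% and 3.62% at stage 11, a log2 ratio of -1.21, and of their 71 tested genes 60 were lower and 3 higher. For the 11 genes themselves, fold changes rest largely on mouse 1 (Rpsa excepted). Rpl22l1, whose protein can stand in for that of Rpl22, had 346, 2.77 and 3.90 CPM at stage 1 and 142, 3.06 and 0.883 at stage 11 (-1.10 ± 0.23, adjusted p = 6.49e-05), while Rpl22 had 514, 543 and 435 CPM and 230.5, 217 and 194 (-0.93 ± 0.12, adjusted p = 3.49e-08). Without mouse 1, Rpl22l1, Rpl26, Rpl34, Rpl30 and Rps27 had too few counts to be tested. Rpl7l1 had 751, 113 and 107 CPM at stage 1 and 234, 65.3 and 75.1 at stage 11. Its call (-0.77 ± 0.34, adjusted p = 0.0392) did not hold without mouse 1 (-0.14, adjusted p = 0.497) or without mouse 2 (-0.80, adjusted p = 0.113). Rpl7 went from 952, 1163 and 1067 CPM to 601, 514 and 572 (-0.63 ± 0.11), and Rpl3 from 769.6, 864 and 1094 to 294, 324 and 365 (-1.18 ± 0.11). The calls of Rpl31, Rplp0 and Rps20, whose changes were small (-0.39, -0.32 and -0.26), were lost when any of the 3 mice was left out, and Rpl37, Rpl7a and Rps27l each lost theirs without at least 1 mouse (Rpl37 without mouse 1 or 2, Rpl7a without mouse 1 or 3, Rps27l without mouse 3). Rpl41 passed as higher without mouse 1 (0.43, adjusted p = 0.000198).

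Other ribosomal and translation genes, from lists drawn up for this comparison, moved unevenly. The counts below stand against 41.2% of all genes lower and 34.8% higher. Of the ribosomal proteins outside the naming rule, Fau (-0.85 ± 0.12), which encodes a ubiquitin-like fusion with RPS30, and Gnb2l1 (-1.25 ± 0.12), which encodes the scaffold RACK1, fell, and Rpl10l and Rpl39l rose. Of 12 translation elongation and termination factors tested, 11 were lower, with a median of -0.82. The fall was largest for the X-linked Gspt2 (-5.17), a release factor copy, and for Eif5a2 (-1.82). Of 17 other TOP messages, 15 were lower and 2 higher. Pabpc1, the poly(A)-binding protein, rose from 1329, 1990 and 2435 CPM to 2231, 7146 and 6960 (1.73 ± 0.20), and Eif3e rose by 0.64 ± 0.13. Hnrnpa1 (-3.96) had 181, 2.77 and 3.90 CPM at stage 1 and so rests on mouse 1.

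Of 40 initiation factors, 20 were lower and 15 higher, close to the shares over all genes. Eif1ax (-6.01, X-linked) and Eif2s3y (-3.94, Y-linked) had the largest falls, and Eif4g3 (2.08), a scaffold that male meiosis needs, and Eif4a2 (1.84), a helicase, the largest rises. Of 57 genes for ribosome assembly and ribosomal RNA processing, 38 were lower and 6 higher, with a median of -0.90. Nop56, of the box C/D particles, went from 352, 515 and 602 CPM to 29.9, 35.7 and 37.1 (-3.54 ± 0.14), and the X-linked Utp14a fell by 4.62 on the log2 scale, while Sbds (1.72) and Wdr12 (1.54), which act late in large subunit assembly and in its processing, were higher. Of 14 genes for RNA polymerase I and its factors, 7 were lower and 3 higher, with Ubtf, the activator of ribosomal DNA, falling from 85.0, 85.8 and 99.6 CPM to 7.26, 5.10 and 3.31 (-3.86 ± 0.29) and Taf1b (2.46) and Polr1d (1.86) rising.

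Among 21 tested genes of mTORC1, LARP1 and MYC, 11 were lower and 5 higher, not far from the shares over all genes. Mycn, a driver of ribosome gene transcription, went from 99.7, 102 and 93.7 CPM to 0.622, 2.04 and 0.883 (-6.35 ± 0.34), and Eif4ebp1, a translation repressor under mTORC1, from 218, 227 and 238 to 1.04, 6.12 and 5.08 (-5.75 ± 0.29). Larp1 rose from 372, 518 and 715 CPM to 779, 1338 and 1404 (1.41 ± 0.14), and Mxd1, an antagonist of MYC, rose by 2.15 ± 0.34 on 22 UMIs at stage 1. The genes listed as mitochondrial ribosomal proteins, taken by symbols that start with Mrpl or Mrps and a digit, had calls in both directions. Whether each of their proteins belongs to the organelle's own ribosome was not checked. Of 76 tested, 22 were lower and 31 higher. With total UMIs without the members as the library size, 29 were lower and 21 higher. The median in the fit with TMM was 0.24 against -0.17 for all genes and -0.91 for the cytosolic members. The largest of these were Mrpl53 (3.04) and Mrps28 (2.74) upward and Mrpl23 (-3.05) and Mrps36 (-1.75) downward. The difference between the cytosolic and mitochondrial lists was not tested, and per ERCC UMI 68 of the 76 mitochondrial genes were higher.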

How the data were processed

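SORT-Seq counts came from single Dazl-GFP-positive testis cells of 3 mice. The authors deposited UMI counts and read counts per gene and well, and transcripts, which are expected counts (UMI counts corrected for collisions of tags). Reads were mapped with BWA 0.7.10 and the build was mm10, per the submitters' processing notes; other steps are not given in the sources used here. The 8 libraries of mouse 1 share 1 set of column names and were pooled. Tags were 256 possible in mouse 1 and 4096 in mice 2 and 3, as read from the values, and 69 values of mouse 1 stood at that limit.

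Shares and CPM were computed over autosomal, X and Y genes, without spike-ins, mitochondrial genes, eGFP and Rn45s. Wells with at least 1000 UMIs were kept (545, 321 and 582 in mice 1, 2 and 3, with medians of 16275, 9830 and 14132.5 UMIs); each was sorted as 1 cell, so doublets were not called. Stages were made from genes of the odd-numbered autosomes without the members and the lists (1500 variable genes, Seurat 5.3.0 anchors with 15 dimensions, scanpy 1.11.5 Leiden resolution 1.0, diffusion pseudotime). Of 14 clusters, 3 were no stage: 2 had a median depth under 1/3 of that of all kept cells and 1 was led by spermatid genes. Stage names ending in "-like" were rebuilt from marker lists.

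UMIs were summed per mouse and stage (32 sums of at least 10 cells) and tested with edgeR 4.0.16 (glmQLFit, TMM, filterByExpr, terms for stage and mouse), with Benjamini-Hochberg adjustment over all 12028 genes. The mouse is a block because each mouse gave its own cells to nearly every stage. On simulated counts for 10647 genes, the fit recovered 91.7% of genes changed by -2, 24.5% by -1, 22.4% by 1 and 100% by 2 on the log2 scale, with 4.10% of calls false. There, 48, 49, 49 and 50 genes were changed by these amounts, where 4956 genes were lower and 4189 higher in the data. The simulation therefore does not test the normalization when many genes change. Shares and spike-in ratios carry no p. Alternatives were other normalizations (DESeq2 1.42.0, total UMIs, ERCC UMIs), tables, filters, stagings and leaving out each mouse. For the transcripts table, columns of mouse 1 stood in another order and were matched by profile (lowest correlation 0.972); expected counts were rounded first. Members and lists were chosen with earlier results of these data known. Genes were named by rule: X-linked members, paralogue pairs, Rps27a, the 5 autosomal members that fell most and the 5 that rose most or fell least, the 3 highest at stage 1, the 3 largest changes each way within the pool, and per list the 2 largest changes each way. A few genes that this rule names are not reported here or plotted.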

Additional observations from a re-analysis of the deposited data

Results flagged for a closer look

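Wells outside the 11 stages, which entered no comparison, held ribosomal protein UMIs as well. In the 83 wells of a low-depth cluster the members made up 5.12% of nuclear UMIs as the mean of 3 mice (3.85% to 7.01%), and in the 99 wells of the other low-depth cluster 4.47% (3.67% to 5.17%). The 27 cells led by Prm2, Prm1, Tnp2 and Tnp1, elongating spermatid-like, had 5.73% (4.86% to 6.55%). In the 472 wells under 1000 UMIs the share was 4.32% (4.16% to 4.43%). No control wells are labelled, so no background was subtracted.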

How the results depend on the processing

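The log2 ratio of the members' share, latest against earliest stage, was -1.10 to -1.38 over 14 alternatives, with -1.38 from reads in place of UMIs, and -1.28 to -1.14 when a mouse was left out. The spike-in ratio was 0.194 to 0.649. The count of members lower at the latest stage was 59 to 64 with a mouse left out and 71 with DESeq2, and 11 with ERCC UMIs as library size; that of members higher was 3, and 0 with total UMIs, 0 with total UMIs without the members, 37 with ERCC UMIs, and 6 each with UMIs corrected for collisions and with the transcripts. Without the replicate block (the mouse term), the pairing by mouse lost, 54 members were lower and 1 higher at the latest stage, 10 lower at stage 2, 8 at stage 4 and 31 at the step from stage 4 to stage 5, 1 higher at the step from stage 2 to stage 3, 18 above the pool, and 3 of the mTORC1 list higher.

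With ERCC UMIs, 5 members were lower at stage 2, 79 at stage 4, and 1 higher at stage 3 than at stage 2; that step had 3 with reads. Leaving out a mouse gave 21 to 27 lower at stage 2, 17 to 31 at stage 4, and 3 to 7 higher at the step from stage 2 to stage 3.

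For the lists, ERCC UMIs gave lower and higher counts of 4 and 29 for initiation, 1 and 6 for elongation, 2 and 10 for TOP messages, 8 and 27 for assembly, 2 and 10 for RNA polymerase I, 5 and 11 for mTORC1 and 1 and 68 for mitochondrial ribosomal proteins, and 1 lower outside the naming rule. Total UMIs gave 9 higher for initiation and 3 for mTORC1, and without the members 7, 3 and, for TOP messages, 1. Elongation had 1 higher with reads, collision-corrected UMIs, transcripts, resolution 0.7 and even-autosome stages, and 0 to 1 with a mouse left out. Assembly had 11 higher with corrected UMIs and 11 with transcripts, and mitochondrial proteins 11 lower with reads.

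ERCC scaling put 49 of the 68 lower members above 0, 23 of them past the threshold. Of genes named in the text, it turned Rpl22l1 (0.209), Rpl22 (0.422), Rpl3 (0.18), Rpl7l1 (0.635), Rpl7 (0.722), Rps27a (0.469), Rpl24 (1.33), Rps24 (0.287), Rpl4 (0.143), Rps6 (0.636), Rps4y2 (0.680), Rplp0 (1.03), Rps20 (1.08), Rpl31 (0.96), Rpl7a (0.99), Rplp1 (0.047), Rps28 (0.30), Rps29 (0.76), Rpl34 (0.35), Rpl37 (0.44), Rpl26 (0.71), Rpl30 (1.07), Fau (0.502) and Gnb2l1 (0.0946) upward, and total UMIs without the members turned Rps27l (-0.0462) and Rpl9 (-0.313) downward. Low counts limit Rpl3l, Rps4x, Rplp2, Rpl36a and Rpl39; intervals over mice rest on 3 animals. Apart from the scaling itself, the causes of these shifts were not tested. Leaving out the X-linked members or the 11 that stand apart in mouse 1, both added after the data were seen, gave -1.19 and -1.21 for the share.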

Other observations

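The 6 rows that the naming rule left out as pseudogenes changed as unevenly as the members. From stage 1 to stage 11, Rplp2-ps1 (-1.99 ± 0.24 SE), Rps19-ps3 (-1.89 ± 0.35), Rps15a-ps6 (-1.28 ± 0.20) and Rpl34-ps1 (-1.23 ± 0.20) fell in edgeR's test, while Rps15a-ps4 (-0.70, adjusted p = 0.111) and Rpl31-ps12 (0.09, adjusted p = 0.72) did not pass. Summed with the gene they are named after, the log2 ratios of CPM were -0.56 ± 0.15 (SD over mice) for Rpl31, against -0.72 for Rpl31 alone, -1.70 ± 0.32 for Rps15a, against -1.97 alone, and -0.68 ± 0.69 for Rpl34, against -0.69 alone.

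Tag collisions touched the members more than other genes in mouse 1, whose tags were shorter. Correcting for them raised the members' UMIs by 18.7% at stage 1 and 16.2% at stage 11 in mouse 1, against 6.23% and 10.9% for all nuclear UMIs. In mice 2 and 3 the members grew by 0.686% and 0.740% at stage 1. After the correction the median log2 fold change was -0.67 for the members and 0.08 for all genes.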
